A study of Mus musculus with 6 samples.

Results

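Intermediate filaments are ropelike polymers that give a cell its resistance to mechanical strain. Keratins build them in epithelial cells, whereas vimentin is the main cytoplasmic filament protein of fibroblasts and other mesenchymal cells. Its appearance in carcinoma cells is widely used as a sign of epithelial-mesenchymal transition. The nuclear lamins belong to the same protein family and line the inside of the nuclear envelope of nearly every cell. The genes examined here were vimentin and 8 other non-keratin intermediate filament genes, taken by name from a table of 21966 genes. They were the type III genes Vim, Des, Gfap and Prph, the genes of nestin (Nes) and synemin (Synm), and the lamin genes Lmna, Lmnb1 and Lmnb2. All 9 genes had a row in the table with a status of OK in both conditions.

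RNA-seq was performed on cells cultured from intestinal tumors of mice in which Cre, driven by the CDX2P promoter, had deleted a floxed segment of 1 Apc allele. PID+ cells came from CDX2P-NLS-Cre;APCΔ/+;ROSA26-PID mice, which also express a peptide inhibitor of Group I Paks (the Pak inhibitor domain) from the Rosa26 locus, and PID- cells came from CDX2P-NLS-Cre;APCΔ/+ mice without it. There were 3 samples in each group, numbered 4, 7 and 26 for PID+ and 1, 2 and 3 for PID-, and although both groups carried the Apc deletion, normal and untreated are the words the labels use for PID-. The Cre and Apc lines were C57BL6/J, the mice of the study were followed to 8 months of age, and the age at which each culture was started is not given in the sources used here. Each culture was a line grown from tumor tissue, and CDX2P drives Cre mainly in colon and ileum epithelium. The question was how gene expression differs when Pak activity is inhibited in Apc-mutant tumor cells.

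The deposited values are FPKM, fragments scaled by transcript length and by the size of the library, so that levels of different genes can be compared. The 3 sets of reads of each group had been pooled, and each gene therefore has 1 FPKM in PID+ and 1 in PID- cells, with the lower and upper bound of an interval from the authors' software. No value per sample was used, differences have no check on replicates, and p-values were not calculated. Changes are log2 ratios of FPKM + 1, PID+ over PID-, and this scale understates changes at low FPKM. A gene was counted as changed when FPKM + 1 differed at least 3-fold. The intervals were wide, and a pair of intervals that did not overlap is called apart.

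The cells carried RNA of epithelial genes in both conditions. Epcam, an epithelial adhesion molecule, had 401 FPKM in PID+ cells and 124 FPKM in PID- cells, and Cdh1, which encodes E-cadherin, had 192 and 88.0. Krt20, a keratin of differentiated gut epithelium, had 158 and 73.5, whereas some markers of gut identity were low or listed at 0. Cdx1 was listed at 0 in both conditions, the FPKM of Vil1 was 0.175 and 0.0614, and Cdx2, a transcription factor of intestinal identity, had 0.542 in PID+ and 8.04 in PID- cells. Of 9 colon epithelium markers, 2 were at least 3-fold higher in PID+ cells (Epcam and the claudin gene Cldn7) and 2 at least 3-fold lower (Cdx2 and the cadherin gene Cdh17, which had 1.67 in PID+ and 25.9 in PID- cells). Intervals were apart for Cdh17 and overlapped for Epcam, Cldn7 and Cdx2, and the median log2 change of the list was 0.15. With Gapdh set equal between the conditions, Epcam and Cldn7 had log2 changes of 1.06 and 1.15, short of 3-fold, and with equal total FPKM only Cldn7 passed 3-fold, whereas Cdx2 and Cdh17 passed it under each of the 4 scalings tried.

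Vim fell in PID+ cells, and no other gene of the 9 changed at least 3-fold in either direction. The share of genes at least 3-fold lower in PID+ cells was 1.72% of the 21959 genes with a status of OK, and the share at least 3-fold higher, which none of the 9 reached, was 1.04%. The intervals of Vim were apart, as they were for 0.542% of all genes in the direction of lower levels in PID+ cells. The intervals of the other 8 genes overlapped, and for the direction of higher levels 0.187% of all genes had intervals apart. At a threshold of 2-fold, Prph joined Vim among the lower genes (3.77% of all genes) and Lmnb1 was higher (3.31% of all genes). The log2 change of Lmnb1, 1.01, was just past 2-fold, and with equal total FPKM (0.91) or Gapdh set equal (0.40) it no longer passed. Prph passed 2-fold under all 4 scalings. Of the 4 scalings, Lmna passed 2-fold only with Gapdh set equal (-1.08), in the direction of lower levels. Mean FPKM over both conditions was at least 1 for 6 of the 9 genes, and below 1 for Des, Gfap and Synm. Log2 changes of the 9 genes had a median of 0.12, with 3 of the 9 lower in PID+ cells, against 0 for all genes. With Gapdh set equal the median was -0.17 and 6 of the 9 were lower, so the direction of the median depended on the scaling.

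**Figure D1:**
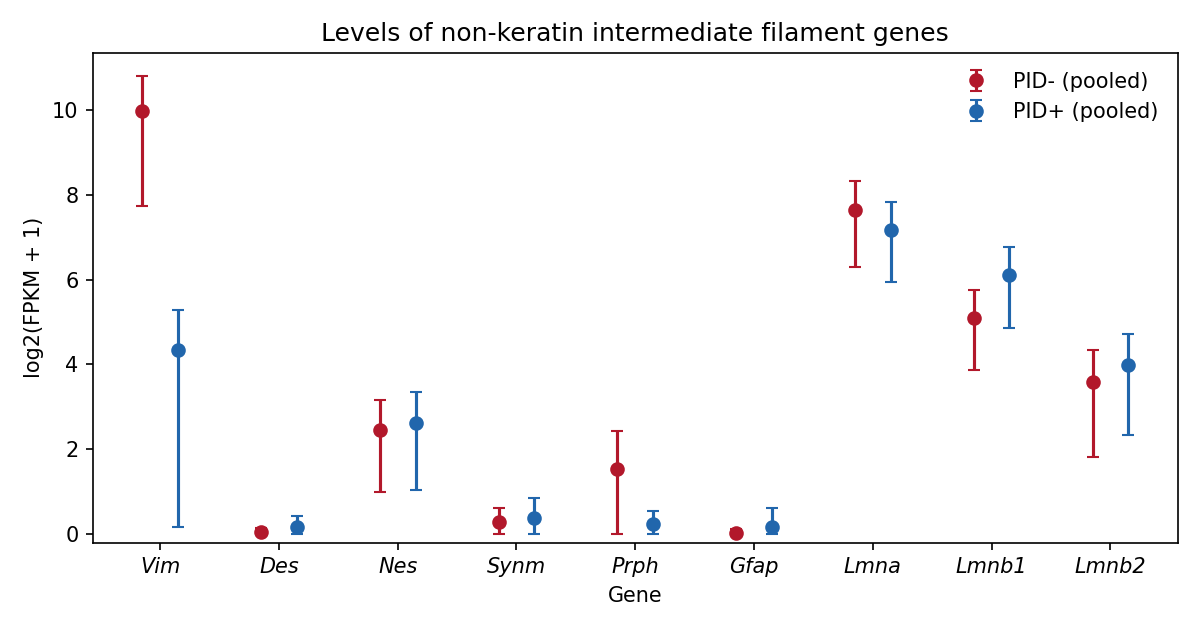
Level of each gene as log2(FPKM + 1) in PID- (red) and PID+ cells (blue). Points are the pooled values and bars the deposited intervals. Only the bars of Vim are apart, with an upper bound of 38.1 FPKM in PID+ and a lower bound of 213 FPKM in PID- cells.

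Vimentin (Vim, ENSMUSG00000026728.6) is encoded on the plus strand of chromosome 2 of GRCm38 from 13573927 to 13582826. Its FPKM was 19.1 in PID+ cells, with an interval from 0.124 to 38.1, and 997 in PID- cells, with an interval from 213 to 1782. The log2 change was -5.63, the 4th largest fall of the table. The ends of the intervals that lie closest to each other still differed 5.46-fold in FPKM + 1, whereas the pooled values differed 49.6-fold. By FPKM, Vim was in place 64 among all genes of PID- cells and in place 4911 in PID+ cells. About 2597 reads in PID+ and 186772 in PID- cells lay behind these values, as estimated from the steps of low FPKM values, so that the transcript was still read many times in PID+ cells. Since RNA came from whole cultures, fewer cells with Vim RNA and less Vim RNA per cell cannot be told apart.

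The 5 genes outside the family nearest to Vim, by Euclidean distance between log2(FPKM + 1) in the 2 conditions, were Cep85, Spp1, Sh3bgrl3, Slc7a5 and Anxa6. Cep85, which encodes a centrosomal protein, came closest at a distance of 0.96, with 15.8 FPKM in PID+ cells and 525 FPKM in PID- cells. Spp1, the gene of the secreted protein osteopontin, followed at a distance of 1.72 with 63.8 and 782. The distances of the other 3 genes were between 2.15 and 2.40. Intervals were apart for Cep85, Spp1, Sh3bgrl3 and Anxa6 and overlapped for Slc7a5. With values in 2 conditions, this likeness means a similar level in each of them and no more.

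The other type III genes had low levels. Desmin (Des, ENSMUSG00000026208.9, chromosome 1 from 75360329 to 75368579), the filament protein of muscle, had 0.119 FPKM in PID+ cells and 0.0320 FPKM in PID- cells, with upper bounds of 0.337 and 0.110. Glial fibrillary acidic protein (Gfap, ENSMUSG00000020932.11, chromosome 11 from 102887336 to 102900912), which marks astrocytes and enteric glia, had 0.127 and 0.0173, with upper bounds of 0.543 and 0.0948. The estimated reads behind these values were 23 and 8 for Des and 21 and 4 for Gfap, in PID+ and PID- cells respectively. All these intervals started at 0, and for each gene they overlapped between the conditions. Of the 50-base stretches of the Des transcript, 5.81% also occur in the antisense gene Gm15179, so reads of the pair cannot be fully told apart.

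Peripherin (Prph, ENSMUSG00000023484.10, chromosome 15 from 99055174 to 99058978) is found mainly in peripheral neurons. Its FPKM was 0.185 in PID+ cells, with an interval from 0 to 0.459, and 1.92 in PID- cells, with an interval from 0 to 4.43. The log2 change of -1.30 lay short of 3-fold. It was -2.83, past 3-fold, when 0.1 was added to the FPKM in place of 1. The FPKM of Prph alone was 10.4 times as high in PID- cells, a ratio that the pseudocount of 1 makes smaller. The intervals of Prph overlapped and both reached down to 0. The reads behind Prph were estimated at 21 in PID+ and 301 in PID- cells.

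Nestin and synemin join filaments built by other members, such as vimentin and desmin. Nestin (Nes, ENSMUSG00000004891.13, chromosome 3 from 87971078 to 87980451) reached 5.09 FPKM in PID+ cells, with an interval from 1.07 to 9.12, and 4.44 in PID- cells, with an interval from 0.987 to 7.89. Its log2 change was 0.16, and the bounds of the intervals allow any value from -2.11 to 2.35. Its direction was not stable, as the log2 change was -0.34 when Gapdh was set equal and -0.09 when the median of the other genes of chromosome 3 was subtracted. Synemin (Synm, ENSMUSG00000030554.12, chromosome 7 from 67730160 to 67759742) had 0.311 and 0.221, with upper bounds of 0.791 and 0.534 and lower bounds of 0. Its log2 change of 0.10 became -0.02 with Gapdh set equal and -0.14 with the chromosome median subtracted. Synm lies within the span of Ttc23, which is on the other strand, and 4.70% of its 50-base stretches also occur in transcripts of Ttc23 or Gm45102. Ttc23 had 8.56 FPKM in PID+ cells and 9.30 FPKM in PID- cells.

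The lamins were the most abundant of these genes besides Vim. Lmna (ENSMUSG00000028063.12, chromosome 3 from 88480147 to 88509956) encodes lamins A and C, which are made by alternative splicing and share this value. Its FPKM was 144 in PID+ cells, with an interval from 60.8 to 227, and 198 in PID- cells, with an interval from 77.0 to 319. Lmnb1 (ENSMUSG00000024590.8, chromosome 18 from 56707813 to 56753424), the gene of lamin B1, had 68.0 in PID+ cells, from 28.1 to 108, and 33.2 in PID- cells, from 13.7 to 52.7. Lmnb2 (ENSMUSG00000062075.10, chromosome 10 from 80901203 to 80918245), the gene of lamin B2, had 14.8, from 4.01 to 25.5, and 10.9, from 2.52 to 19.3. The log2 changes were -0.46 for Lmna, 1.01 for Lmnb1 and 0.40 for Lmnb2, none of them past 3-fold. With Gapdh set equal they were -1.08, 0.40 and -0.17, so the direction of Lmnb2 depends on the scaling.

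Ratios of genes within a condition do not depend on that scaling. The FPKM of Lmna was 2.12 times that of Lmnb1 in PID+ cells and 5.96 times in PID- cells. By the bounds of the intervals this ratio could lie between 0.563 and 8.07 in PID+ and between 1.46 and 23.3 in PID- cells, so the ranges overlapped. The ratio of Lmnb1 to Lmnb2 was 4.61 in PID+ and 3.04 in PID- cells, with ranges that overlapped as well. Summed over the 3 lamins, FPKM was 227 in PID+ cells and 242 in PID- cells, a difference well within the bounds of Lmna alone.

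Lamin B1 RNA is known to be more abundant in dividing cells. All 7 cell division markers had more FPKM in PID+ cells, the median of their log2 changes being 1.20, but none was 3-fold higher or had intervals apart. With Gapdh set equal all 7 were still higher, with a median of 0.59. Their summed FPKM was 771 in PID+ cells and 391 in PID- cells, and Top2a, a DNA topoisomerase, was the most abundant with 257 and 138. The largest log2 change was that of the replication helicase gene Mcm2, at 1.39. The part of these markers in the level of Lmnb1 was not tested. They are RNA levels, and the study reported lower proliferation of PID+ than of PID- cells, measured as cell viability.

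Prelamin A and the B-type lamins are farnesylated, clipped and methylated before or as they reach the nuclear envelope. None of the 5 genes of these enzymes changed 3-fold or had intervals apart, and their median log2 change was -0.10. With Gapdh set equal the median was -0.66 and all 5 were lower. Fnta, the alpha subunit of farnesyltransferase, had the largest difference, with 28.9 FPKM in PID+ cells and 56.6 FPKM in PID- cells and a log2 change of -0.94. Zmpste24, the protease that matures prelamin A, had 37.6 and 39.1. Among 14 genes of nuclear envelope proteins that bind lamins or link them to the cytoskeleton, none changed 3-fold and none had intervals apart, with a median log2 change of 0.18 that became -0.34 with Gapdh set equal. The most abundant was Banf1, whose product bridges DNA and the envelope, with 194 and 170. The lamin B receptor gene Lbr had the largest difference, with 57.5 FPKM in PID+ cells and 28.4 FPKM in PID- cells and a log2 change of 0.99. For Syne1 the deposited FPKM, 12.5 and 11.0, lay above its own upper bound in each condition, as happened in 17 genes of the table, and its interval was not used.

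The order of the 9 levels differed between the conditions. In PID- cells the order from the highest FPKM was Vim, Lmna, Lmnb1, Lmnb2, Nes, Prph, Synm, Des and Gfap, and in PID+ cells it was Lmna, Lmnb1, Vim, Lmnb2, Nes, Synm, Prph, Gfap and Des. Of the neighbours in this order, only Lmna and Lmnb1 in PID- cells and Nes and Synm in PID+ cells had intervals apart, and each of the other neighbours overlapped. Among the 36 pairs of genes, 4 stood in the opposite order in the 2 conditions, 2 of them with Vim (with Lmna and with Lmnb1), and the others were Des with Gfap and Synm with Prph, whose intervals overlapped in both conditions. Vim lay above Lmnb1 with intervals apart in PID- cells and below Lmna with intervals apart in PID+ cells.

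Vim made up 80.0% of the summed FPKM of the 9 genes in PID- cells and 7.60% in PID+ cells, and the lamins made up 19.4% and 90.1%. The sum over all 9 genes was 1246 in PID- and 252 in PID+ cells, and without Vim it was 249 and 233. Among the 6 cytoplasmic genes alone, Vim was 99.3% of the sum in PID- and still 76.6% in PID+ cells, so Vim had the highest FPKM of the cytoplasmic genes in both conditions, although its interval in PID+ cells overlapped those of the other 5 genes.

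**Figure D2:**
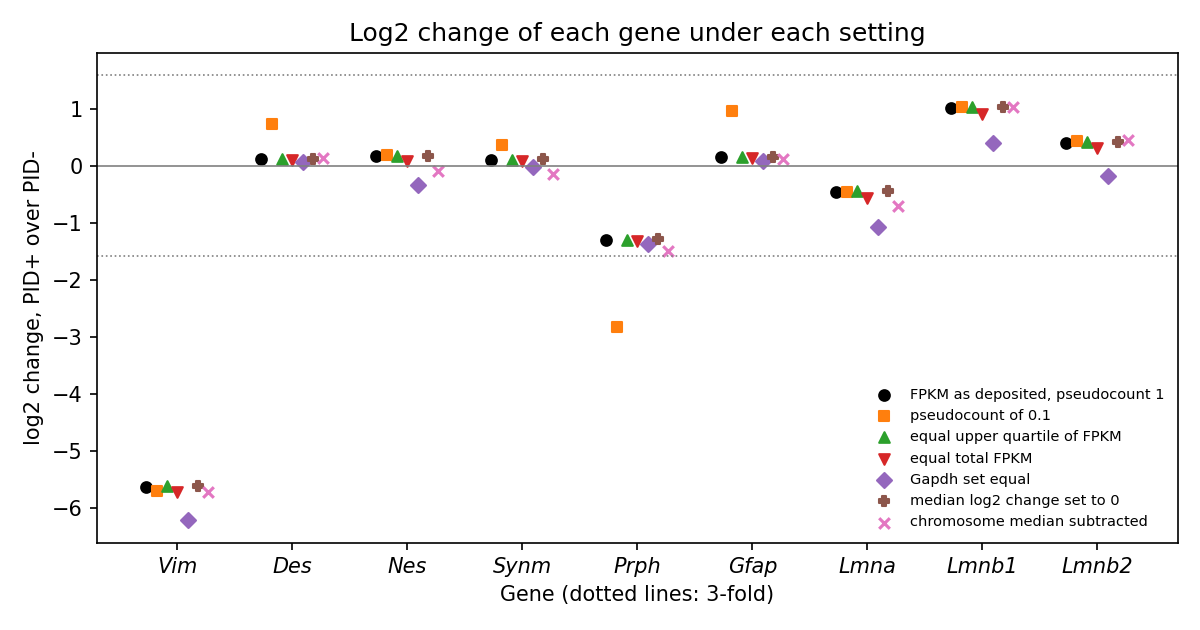
Log2 change of each gene, PID+ over PID-, with the deposited FPKM and a pseudocount of 1 (black circles) and under 6 other settings (coloured symbols). Dotted lines mark 3-fold. Vim stays between -6.22 and -5.62 under the other settings, and Prph passes 3-fold with a pseudocount of 0.1 only.

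Keratins are the filament proteins that vimentin accompanies or replaces when epithelial cells take on mesenchymal traits. The FPKM of Vim was 0.756 times that of Krt8 in PID- cells and 0.00697 times in PID+ cells, and the ranges that the intervals allow, from 0.0989 to 3.65 and from 2.62e-05 to 0.0517, did not overlap. None of the 5 simple epithelial keratins (Krt7, Krt8, Krt18, Krt19 and Krt20) changed 3-fold or had intervals apart. All 5 were higher by FPKM in PID+ cells, and the median of their log2 changes was 1.06. With Gapdh set equal, 3 of the 5 (Krt8, Krt18 and Krt20) were higher and 2 (Krt7 and Krt19) lower, with a median of 0.43. The largest log2 change was that of Krt18, 1.24, with 2843 FPKM in PID+ cells and 1199 FPKM in PID- cells. Krt19 was the most abundant of these 5 in PID- cells, with 2073 against 2469 in PID+ cells.

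Other non-keratin filament genes, those of neurofilaments, alpha-internexin, the beaded filament of the lens and the orphan genes Iffo1 and Iffo2, were mostly near 0. None of these 8 genes changed 3-fold or had intervals apart, and their median log2 change was 0.02. Iffo2 was the most abundant, with 10.2 FPKM in PID+ cells and 14.3 FPKM in PID- cells. The heavy neurofilament gene Nefh had the largest difference, with 1.08 in PID+ cells against 0.0446 in PID- cells, lower bounds of 0 and a log2 change of 0.99. Its FPKM alone was 24.2 times as high in PID+ cells, a ratio that the pseudocount of 1 makes smaller. The light neurofilament gene Nefl was listed at 0 in PID- cells and had 0.00458 in PID+ cells.

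Plakins are giant linkers that tie intermediate filaments to junctions, to actin and to microtubules. Of 7 listed genes 6 were found in the table, and 1 of these, the envoplakin gene Evpl, rose at least 3-fold, with 15.7 FPKM in PID+ cells against 3.33 FPKM in PID- cells and a log2 change of 1.94. Its intervals, from 0.627 to 6.04 in PID- and from 6.52 to 24.8 in PID+ cells, were narrowly apart. With Gapdh set equal its log2 change was 1.37, short of 3-fold. Plec, the gene of plectin, which binds vimentin filaments, had 62.1 FPKM in PID+ cells and 54.1 FPKM in PID- cells. Macf1 was the most abundant plakin gene, with 148 and 102, and the 6 genes had a median log2 change of 0.32, which became -0.29 with Gapdh set equal.

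Vimentin filaments are taken apart when kinases phosphorylate the head domain of the protein, and Paks are among these kinases. None of 10 such kinase genes changed 3-fold or had intervals apart, and their median log2 change was -0.27. With Gapdh set equal the median was -0.78 and 7 of the 10 were lower. Pak1 had 17.6 FPKM in PID+ cells and 23.4 FPKM in PID- cells, and Pak2 had 39.5 and 52.6. The most abundant was Cdk1, with 231 and 127. With the deposited FPKM, the largest difference was that of the mitotic kinase gene Plk1, with a log2 change of 1.12. Aurkb, another mitotic kinase, followed with 58.7 FPKM in PID+ cells against 28.8. In the other direction the largest difference was that of Rock2, with -0.79.

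Cell types that express Vim or other members could also be present in a culture, and their markers were therefore read beside Vim. Of 11 fibroblast markers, 4 (Col1a1, Col1a2, Col3a1 and Dcn) fell at least 3-fold, under each of the scalings tried, and none rose, and the median log2 change was -0.87. Intervals were apart for Col1a2 and overlapped for Col1a1, Col3a1 and Dcn. The FPKM of all 11 markers summed to 3.24 in PID+ cells and 36.5 in PID- cells. Col1a2 led in PID- cells, with 11.9 against 0.0654 in PID+ cells, and Col1a1 led in PID+ cells, with 2.32 against 11.9. Lum was listed at 0 in both conditions, Thy1 and Dcn were listed at 0 in PID+ cells, and Pdgfra, a defining receptor of fibroblasts, had 0.188 and 0.243. The part of fibroblasts in the level of Vim was not tested.

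Markers of muscle, vessels, blood and nerve were low for the most part. Among 7 smooth muscle markers, Actg2 fell at least 3-fold (0.280 FPKM in PID+ cells, 3.06 FPKM in PID- cells). The sum of the list was 43.8 in PID+ cells and 38.5 in PID- cells, of which Smtn gave 37.8 and 22.3. The sum of the other 6 genes was 6.04 FPKM in PID+ cells and 16.1 FPKM in PID- cells, 5 of the 7 genes had a lower FPKM in PID+ cells (Acta2 4.39 against 9.76, Tagln 1.02 against 2.93), all with overlapping intervals, and the part of smooth muscle in the level of Vim was not tested. Myh11, which defines mature smooth muscle, had 0.0544 and 0.0345. None of 6 endothelial markers changed 3-fold. They summed to 4.06 and 1.41, led by Kdr with 3.33 and 1.01, and Pecam1 had 0.0960 and 0.0931. None of 7 leukocyte markers changed 3-fold. They summed to 22.1 and 17.2, of which the lysosomal gene Cd68 gave 21.8 and 16.8, whereas Ptprc, carried by all leukocytes, had 0.0264 and 0.00811 and Cd3e was listed at 0 in both conditions. None of 5 markers of enteric glia and neurons changed 3-fold. Their sum was 1.32 in PID+ cells and 4.09 in PID- cells, with Sox10 listed at 0 in both conditions. Of the other 4, 2 had a higher and 2 a lower FPKM in PID+ cells, and the 2 neuronal genes differed in direction, with 0.296 and 2.15 for Tubb3 and 0.158 and 0.0504 for Elavl4, all with lower bounds of 0. The defining markers of leukocytes, endothelium and enteric glia were thus at or near 0 in both conditions.

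The products of the family share a rod domain, and the end of the rod is its most conserved stretch. The longest run of residues that the coding sequence of Vim shares with the most other members had 9 residues and was found in 7 of the 9 genes, all but Nes and Synm. The 27 coding bases of this run are shown for 5 of the genes to compare members that are otherwise expressed at very different levels. Each was read from the longest coding transcript of Gencode M21 in the direction of the gene, and capitals mark bases that differ from Des.
Des: taccggaagctactggagggcgaggag
Lmnb2: taccgCaagctGctggagggcgaggag
Lmna: taTcgAaagctGctggagggcgaggag
Prph: tacAggaagctactggaAggGgaggag
Gfap: tacAggaaATtGctggagggcgaAgaA
Lmnb2 differed from Des at 2 of the 27 bases, Lmna and Prph at 3 each and Gfap at 6, without a change in the residues. The run lies in an exon of each gene, exon 6 of Des (chr1:75363660-75363686, plus strand), exon 5 of Prph (chr15:99057447-99057473, plus), exon 6 of Gfap (chr11:102893040-102893066, minus), exon 6 of Lmna (chr3:88484932-88484958, minus) and exon 7 of Lmnb2 (chr10:80904558-80904584, minus). Despite this likeness, none of the 2144 stretches of 50 bases in the Vim transcript occurs in a transcript of another gene, so reads of that length without errors would not be shared between Vim and another annotated gene. The same held for Nes, Prph, Gfap, Lmna and Lmnb1, and for Lmnb2 0.144% of the stretches also occur in Gm21009.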

How the data were processed

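The authors removed adapters with CutAdapt, used TopHat to align reads to GRCm38.p3 with annotated protein coding genes, pooled the 3 sets of reads of each condition and calculated FPKM with CuffDiff (compatible hits normalization). The deposited FPKM and interval bounds were used, with rows called treated taken as PID+ and rows called untreated as PID-, after the treatments in the labels. The methods speak of replicated sequencing runs and paired ends, the labels of mice and 50 base reads, and the labels number the PID- mice differently from the study's text. Symbols were found for 21734 of 21966 identifiers, and 7 genes without a status of OK in both conditions were left out.

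Log2 changes used a pseudocount of 1. Alternatives were a pseudocount of 0.1, a threshold of 2-fold, 4 scalings between the conditions, a mean FPKM of at least 1, intervals apart, and subtraction of the median of the other genes of a chromosome with a mean FPKM of at least 5. Positions, exons and transcripts were those of Gencode M21 (GRCm38). Reads were estimated as FPKM times transcript length less 170 bases, divided by the value of 1 read. That value was found from 3795 genes with 1 transcript as the step on which low values fell: 91.5% of 636 low values in PID+ and 91.5% of 612 in PID- cells came within 0.1 of whole reads. The 170 bases were chosen among 17 lengths, and estimates for genes with several transcripts are approximate. The depth that follows from the value of 1 read is an estimate and may differ from the true depth, for which the sources give only a range of reads per sample.

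The members and the gene lists were chosen with earlier results of these data known. Every member was named, and of each list the changed genes, the most abundant gene and up to 4 of the largest differences. Defining markers of other cell types, Pak1, Pak2, Plec, Zmpste24, Syne1, Nefl and Ttc23 were named besides, for their role or position. One listed marker and one sequence are not reported here. Calculations were tested on simulated data. Python 3.11.15, numpy 2.4.6, pandas 2.3.3 and matplotlib 3.10.9 were used.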

Additional observations from a re-analysis of the deposited data

How the results depend on the processing

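Under every alternative run Vim passed 3-fold in the direction of lower levels in PID+ cells, with log2 changes from -6.22 to -5.62. The number of members at least 3-fold lower was 1 and became 2, with Prph as the other gene, with a pseudocount of 0.1 and with a threshold of 2-fold. The number at least 3-fold higher was 0 and became 1, Lmnb1, with a threshold of 2-fold. In these cases the count follows from the pseudocount or threshold chosen, in the main setting as much as in the alternative. Of 54 log2 changes over 9 genes and 6 alternatives, 5 had another sign than the main value, 2 for Nes, 2 for Synm and 1 for Lmnb2, all of them below 3-fold.

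Setting Gapdh equal, with 2570 FPKM in PID+ cells and 1666 FPKM in PID- cells, moved the median log2 change of genes whose mean FPKM reached 1 to -0.57. Relative to this median the log2 changes were -5.65 for Vim, 0.97 for Lmnb1, 0.40 for Lmnb2 and -0.51 for Lmna. With equal total FPKM this median was -0.10. No paired analysis was possible because the deposited values are pooled over the samples, and for the same reason no replicate could be left out. The deposited intervals cover the error model of the authors' software and not the spread between mice.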
